A study of Homo sapiens with 3 samples.

Results

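HCT116 is a human colorectal cancer cell line, and the study irradiated it with 8 Gy and followed the giant cells that survived, which it names radiation-tolerant persister (RTP) cells. The cells described here are the cycling, CDKN1A-low cells of Mix1, a single droplet library made only from such irradiated cells. They were chosen as cells with at least 200 detected genes, under 10% mitochondrial UMIs (unique molecular identifiers, each counting 1 captured mRNA molecule) and at least 5000 but under 20000 UMIs, in which MKI67 and TOP2A together had at least 5 UMIs and CDKN1A had at most 3. This gave 2271 cells, which were 24.2% (95% interval 23.4 to 25.1) of the 9372 Mix1 cells in the UMI range, 14.5% of the 15630 cells kept and 13.3% of all 17019 barcodes of the library. The whole series held 30907 barcodes. The cells they were set against, called arrested here after the rule and not after any measurement of arrest, were the 1200 cells of Mix1 (12.8%, 12.1 to 13.5) in the same range with at least 10 CDKN1A UMIs and no UMI of MKI67 or TOP2A.

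Every cell of both libraries was HCT116 of the genotype labelled p53plus. Mix1 pooled giant cells that had been isolated on day 5 or day 8 after 8 Gy and kept in culture to day 10 or day 11, with about 10000 cells loaded, and the 4 parts of that pool carry no mark that would separate them. Mix2 was a later library of about 12000 loaded cells in which antibody hashtags marked irradiated giant cells handled like Mix1 (IR, tag8, about 10000 cells), cells that were never irradiated (NC, tag6, 0 Gy, about 1000) and cells that had repopulated a culture some weeks after 8 Gy (R, tag7, about 1000). No lineage mark was carried, so the counts do not show which cycling cells descend from giant cells. With 1 library behind each population, there are no replicates to set a difference against, and no test was made.

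All values below are UMIs summed over the cells of a group and scaled to CPM, counts per 1000000 UMIs, with 27218476 UMIs behind the cycling cells and 16019778 behind the arrested cells. A ratio is the CPM of the first group over that of the second, with an exact 95% interval that covers counting error only. A gene counted as measured at 10 CPM or more in either group, and as higher or lower at a ratio of at least 1.5 either way. The interval of a list's median reflects how its genes differ among themselves, and genes are not replicates.

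Progression through the cell cycle is driven by cyclin-dependent kinases, and DNA is copied in S phase and divided in mitosis. MKI67 encodes the Ki-67 protein of dividing cells and TOP2A the topoisomerase that untangles replicated chromosomes. CDKN1A encodes p21, an inhibitor of cyclin-dependent kinases that p53 switches on after DNA damage, and high p21 holds RB1-family proteins active, so that the E2F and DREAM target genes of the cycle stay silent. Many genes of G2 and mitosis carry, close to their transcription start, a CCAAT box bound by NF-Y and a cell cycle homology region (CHR).

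The promoters of the 3 genes that chose the cells and of 3 mitotic genes of the results are printed here because these short elements can be read in them. Each is the reference sequence from 250 bases before to 50 bases after the transcription start (RefSeq, GRCh38.p14), written 5′ to 3′ on the strand of the gene. MKI67 lies at chr10:128126374-128126673 on the minus strand, TOP2A at chr17:40417847-40418146 on the minus strand, PLK1 at chr16:23678639-23678938, HMMR at chr5:163460382-163460681, KIF23 at chr15:69414099-69414398 and CDKN1A at chr6:36678464-36678763, the last 4 on the plus strand. Capitals mark TTTGAA, the core letters of the CHR, or CCAAT, on either strand, so that the other strand reads TTCAAA or ATTGG.
MKI67: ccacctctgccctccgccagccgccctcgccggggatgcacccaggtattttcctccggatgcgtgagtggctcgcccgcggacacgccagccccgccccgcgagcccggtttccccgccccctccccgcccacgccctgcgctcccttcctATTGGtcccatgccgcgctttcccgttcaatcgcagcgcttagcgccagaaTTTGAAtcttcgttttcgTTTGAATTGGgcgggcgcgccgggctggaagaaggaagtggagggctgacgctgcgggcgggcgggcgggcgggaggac
TOP2A: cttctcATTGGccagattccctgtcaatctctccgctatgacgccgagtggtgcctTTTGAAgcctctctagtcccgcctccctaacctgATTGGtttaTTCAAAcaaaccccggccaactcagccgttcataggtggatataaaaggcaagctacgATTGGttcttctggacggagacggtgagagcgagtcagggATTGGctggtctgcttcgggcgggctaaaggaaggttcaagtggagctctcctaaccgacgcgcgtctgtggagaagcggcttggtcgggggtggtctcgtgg
PLK1: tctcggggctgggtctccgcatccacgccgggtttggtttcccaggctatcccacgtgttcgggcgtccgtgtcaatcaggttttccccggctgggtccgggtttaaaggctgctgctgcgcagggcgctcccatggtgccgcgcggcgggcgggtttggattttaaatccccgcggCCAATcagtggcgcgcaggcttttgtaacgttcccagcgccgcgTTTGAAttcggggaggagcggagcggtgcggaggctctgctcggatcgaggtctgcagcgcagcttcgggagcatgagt
HMMR: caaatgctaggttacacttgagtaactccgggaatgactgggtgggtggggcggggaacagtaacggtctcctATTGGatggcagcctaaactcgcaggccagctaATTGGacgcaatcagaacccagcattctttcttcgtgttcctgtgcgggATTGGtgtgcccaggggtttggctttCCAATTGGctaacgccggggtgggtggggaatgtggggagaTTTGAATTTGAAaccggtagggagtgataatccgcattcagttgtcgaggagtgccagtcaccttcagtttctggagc
KIF23: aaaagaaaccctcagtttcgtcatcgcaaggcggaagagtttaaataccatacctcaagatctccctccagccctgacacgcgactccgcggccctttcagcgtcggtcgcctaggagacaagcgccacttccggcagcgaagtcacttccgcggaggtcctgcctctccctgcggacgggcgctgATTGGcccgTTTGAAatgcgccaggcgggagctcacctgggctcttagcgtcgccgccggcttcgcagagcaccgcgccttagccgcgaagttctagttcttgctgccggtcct
CDKN1A: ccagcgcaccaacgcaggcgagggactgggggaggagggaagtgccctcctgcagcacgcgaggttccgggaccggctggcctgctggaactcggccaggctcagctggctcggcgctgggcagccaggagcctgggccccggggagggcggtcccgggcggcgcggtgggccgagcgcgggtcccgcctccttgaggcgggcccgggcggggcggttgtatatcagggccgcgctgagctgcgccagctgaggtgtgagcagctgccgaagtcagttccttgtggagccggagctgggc
In the MKI67 promoter the matches to TTTGAA began 47 and 29 bases before the start, and in that of PLK1 a single one began 29 bases before it. The CDKN1A promoter held neither string.

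Over all 27305 genes with a promoter in the reference table, 15.4% held TTTGAA, 35.7% held CCAAT and 6.08% held both. Of the 44 genes of the G2 and M phase list that could be matched, 68.2% held TTTGAA and 54.5% held both strings, with a median position of the TTTGAA 26.5 bases before the start against 124.5 bases over all genes. The 15 matched genes of cytokinesis were similar, at 66.7% with TTTGAA and 60.0% with both. The 31 matched genes of the S phase list held TTTGAA in 6.45% and CCAAT in 71.0%. None of the 19 matched genes of the p53 arrest list held TTTGAA and 57.9% held CCAAT. These letters are a description of the reference sequence and show no binding in these cells.

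The cells were first checked against their labels. All 5 epithelial markers (EPCAM, CDH1, KRT8, KRT18, KRT19) were at 10 CPM or more in both groups, with a summed level of 3556 CPM in cycling and 5982 CPM in arrested cells. None of the 10 fibroblast, 10 immune, 7 endothelial and 7 erythroid markers reached 10 CPM in either group, and 6, 6, 5 and 4 of them stood at 0 in the cycling cells. The groups also differed in depth and in mitochondrial share. The median cell had 11686 UMIs and 3316 genes among cycling cells and 13444 UMIs and 3224 genes among arrested cells. Mitochondrial UMIs had a median of 3.92% (5th to 95th percentile 2.29 to 6.48) in cycling cells and 4.91% (0.190 to 9.14) in arrested cells. The part of depth in the differences below was not tested beyond the alternatives given at the end.

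As the rule required, MKI67 stood at 431 CPM in the cycling cells with a median of 5 UMIs per cell, TOP2A at 367 CPM with a median of 4, and CDKN1A at 113 CPM against 1515 CPM in arrested cells. Of the 2271 cells, 32 had no MKI67 UMI, 84 had no TOP2A UMI and 555 had no CDKN1A UMI. A further 99 cells of the range met the MKI67 and TOP2A limit while holding 10 or more CDKN1A UMIs. The 737 cells (7.86%) with at most 3 CDKN1A UMIs but no MKI67 or TOP2A UMI are used below as a group in between. Another 2525 cells (26.9%) with at most 3 CDKN1A UMIs had 1 to 4 UMIs of the pair and stayed outside every group.

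The share of cells that meet the rule goes with depth, since it counts UMIs. It was 15.7% of Mix1 cells with under 10000 UMIs and 30.4% of those with 10000 or more. In Mix2 the same rule took 33% of the 7234 IR cells (2390 cells), 46.4% of the 699 NC cells (324) and 38.7% of the 532 R cells (206) in the range. Under 10000 UMIs these shares were 30.8%, 41.0% and 33.9%, and at 10000 or more they were 37.5%, 72.9% and 65.1%. The arrested rule took 6.97% of IR cells (504), 7 R cells and 0 of 699 NC cells, which allows a share of up to 0.526% (exact interval, counting error only). In both ranges of depth the cycling share was thus lowest in Mix1, although library and preparation cannot be told apart between Mix1 and Mix2.

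Genes of the cell cycle other than the 3 genes of the rule also differed between cycling and arrested cells of Mix1. Of 7936 genes measured, 2139 (27.0%) were at least 1.5 times higher and 1042 (13.1%) at least 1.5 times lower in the cycling cells. Of 213 measured genes on the cell cycle lists, which leave out the 3 genes of the rule, 196 (92.0%) were higher and 6 were lower, with a median log2 ratio of 3.07. Outside these lists 1943 of 7723 genes (25.2%) were higher and 1036 (13.4%) lower, with a median of 0.17, so that a gene at the level of the bulk of genes sat slightly above 0. Among cells under 5% mitochondrial UMIs alone (1811 and 612 cells) 2494 genes were higher and 1035 lower. These counts describe cells that were picked for their MKI67, TOP2A and CDKN1A counts. Genes that go with these share a direction by that choice, so the cell cycle lists here and below are no separate support for it.

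**Figure D1:**
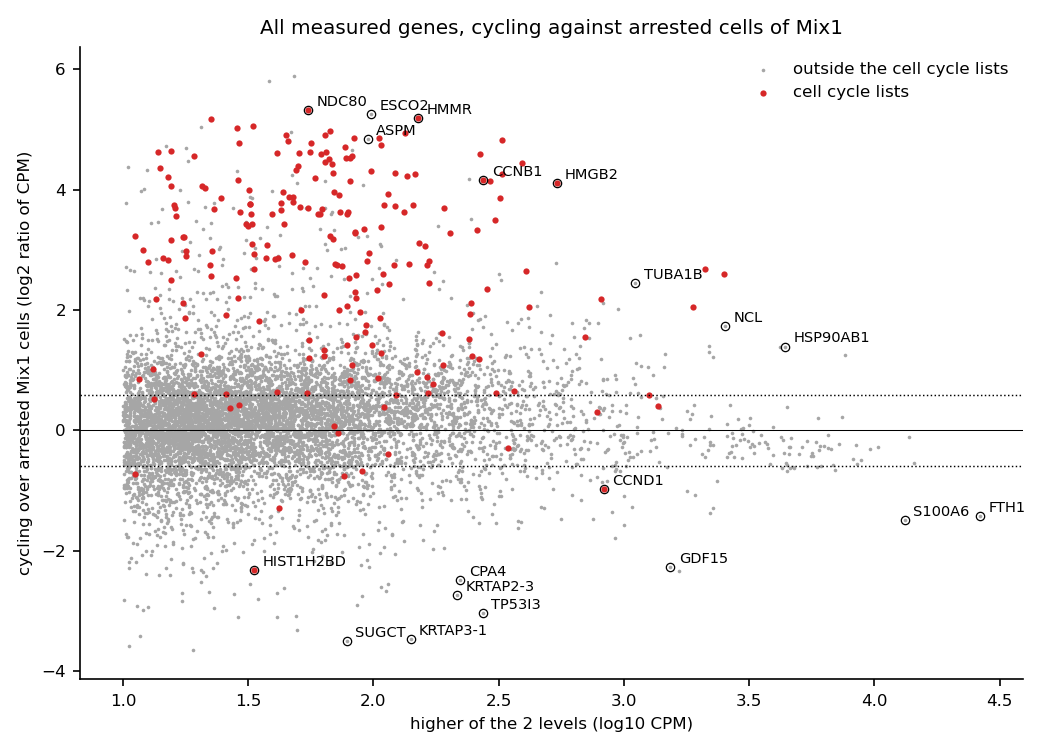
Each point is a measured gene, with log10 CPM in the higher of both groups on the x axis and the log2 ratio of cycling over arrested Mix1 cells on the y axis; dotted lines mark 1.5-fold. Genes of the cell cycle lists (red) lie almost entirely above the upper line, with a median of 3.07, while the other genes centre at 0.17.

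Genes of G2 and mitosis showed the largest differences. All 50 measured genes of the G2 and M phase list were higher, with a median log2 ratio of 4.13 (3.59 to 4.59 over genes). HMMR, a spindle protein, stood at 150 CPM in cycling and 4.12 CPM in arrested cells, a ratio of 36.5 (28.6 to 47.3). NDC80, which ties kinetochores to microtubules, stood at 55.0 and 1.37 CPM, a ratio of 40 (26.3 to 64.1). CDK1, the kinase that starts mitosis, was 24.2 times higher (20.9 to 28.3), at 268 against 11 CPM. Its partner cyclin B1 (CCNB1) was 17.9 times higher (15.8 to 20.4), at 275 against 15.4 CPM. In arrested cells CDK1 and CCNB1 were above the limit for a measured gene. HMMR and NDC80 were under it there and counted as measured only through the cycling cells. A gene under the limit in arrested cells enters a list only if it is higher in cycling cells. The counts of higher genes in this and the following cell cycle lists are thus partly set by that limit.

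The other mitotic groups followed. All 14 measured mitotic kinases and spindle checkpoint genes were higher, with a median of 3.71. Among them PLK1, a kinase of spindle assembly and mitotic exit, stood at 68.8 against 3.56 CPM (19.3 times, 14.9 to 25.6), and AURKA, a kinase of the spindle poles, at 146 against 7.62 CPM. All 21 kinetochore and centromere genes were higher, with a median of 3.72. CENPE, a kinetochore motor, stood at 44.7 against 1.5 CPM. Of 17 genes of cytokinesis and the spindle midzone 15 were higher and 1 lower, with a median of 3.87. KIF23, a motor of the midzone, was 23 times higher (17.6 to 30.5), at 80.2 against 3.50 CPM, and ANLN, a scaffold of the contractile ring, stood at 64.0 against 2.12 CPM. The lower gene was SEPT9, a septin, at 56.2 against 89.8 CPM.

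S phase genes differed by less in the median, yet as uniformly. All 41 measured genes of the S phase list were higher (median 3.09, 2.65 to 3.63), and so were all 18 genes of replication licensing and the helicase (median 2.92). MCM10, which helps to start replication forks, was 26.3 times higher (19.7 to 35.9), at 77.0 against 2.93 CPM. RRM2, the subunit of ribonucleotide reductase made for S phase, stood at 132 against 10.7 CPM. PCNA, the sliding clamp of the replication fork that p53 also controls, differed least of these, at 164 against 88.8 CPM, a ratio of 1.85. Of the transcription factors of the cycle 10 of 11 were higher. E2F8, a repressor among the E2F factors, stood at 28.5 against 0.874 CPM, MYBL2 at 72.6 against 4.81 CPM and FOXM1, which drives mitotic genes, at 42.8 against 3.12 CPM. E2F5, at 6.76 against 11.2 CPM, was the exception and was picked out after its value was seen.

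Repair genes that work on replicated DNA were on the same side. Of 22 measured genes of homologous recombination and the Fanconi pathway 21 were higher, with a median of 3.52. BRCA1 stood at 61.4 against 5.06 CPM (12.1 times, 9.72 to 15.4) and BRCA2 at 31.7 against 2.00 CPM (15.9 times, 11.2 to 23.4). End joining and break sensing genes differed by less, with 10 of 15 higher and a median of 1.02, where 27.0% of all measured genes were higher. The Ku subunit XRCC5 stood at 646 against 268 CPM, and POLL, a polymerase of end joining, was the 1 lower gene. ESCO2, the cohesin acetyltransferase of S phase, had the highest ratio outside the lists among genes with 50 CPM or more in either group, at 98.1 against 2.56 CPM (38.3 times, 28.2 to 53.5). The other 9 of the 10 highest there were ASPM, DEPDC1, PBK, PRR11, SGO2, SGO1, TROAP, MND1 and FBXO5. Several of these are known from mitosis, such as ASPM of the spindle poles and the shugoshins SGO1 and SGO2, which guard cohesion at centromeres, so the lists did not hold every gene of the cycle.

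Chromatin and nuclear lamina genes differed with some exceptions. LMNB1, lamin B1 of the nuclear lamina, stood at 68.2 against 3.18 CPM (21.4 times, 16.2 to 28.9). HMGB2, a chromatin protein, was 17.3 times higher (15.8 to 19) at 539 against 31.1 CPM, and HMGB1 was 6.08 times higher (5.92 to 6.23) at 2514 against 414 CPM. Of 24 histone and condensin genes 18 were higher. HIST1H4C, an H4 histone gene, stood at 2100 against 325 CPM (6.45 times, 6.27 to 6.64). HIST1H2AC (17.1 against 41.8 CPM), HIST1H2BD (6.65 against 33.3 CPM) and the variant H2AFJ (45.2 against 76.3 CPM) were lower. Histone genes have near-identical copies and mostly lack poly(A) tails, so their counts in a poly(A)-primed library are uncertain.

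Of 21 measured cyclins, their kinases and their inhibitors 17 were higher and 1 was lower, with a median of 2.54. CCND1, cyclin D1 of G1, was the lower one at 423 CPM in cycling against 834 CPM in arrested cells, 1.97 times lower (1.92 to 2.02). CDK4, its kinase, stood at 173 against 101 CPM. CDK6, the other kinase of cyclin D, stood at 87.0 against 114 CPM, within 1.5-fold. CDKN2A, which encodes p16 and p14ARF, was 2.67 times higher in the cycling cells, at 98.4 against 36.9 CPM.

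**Figure D2:**
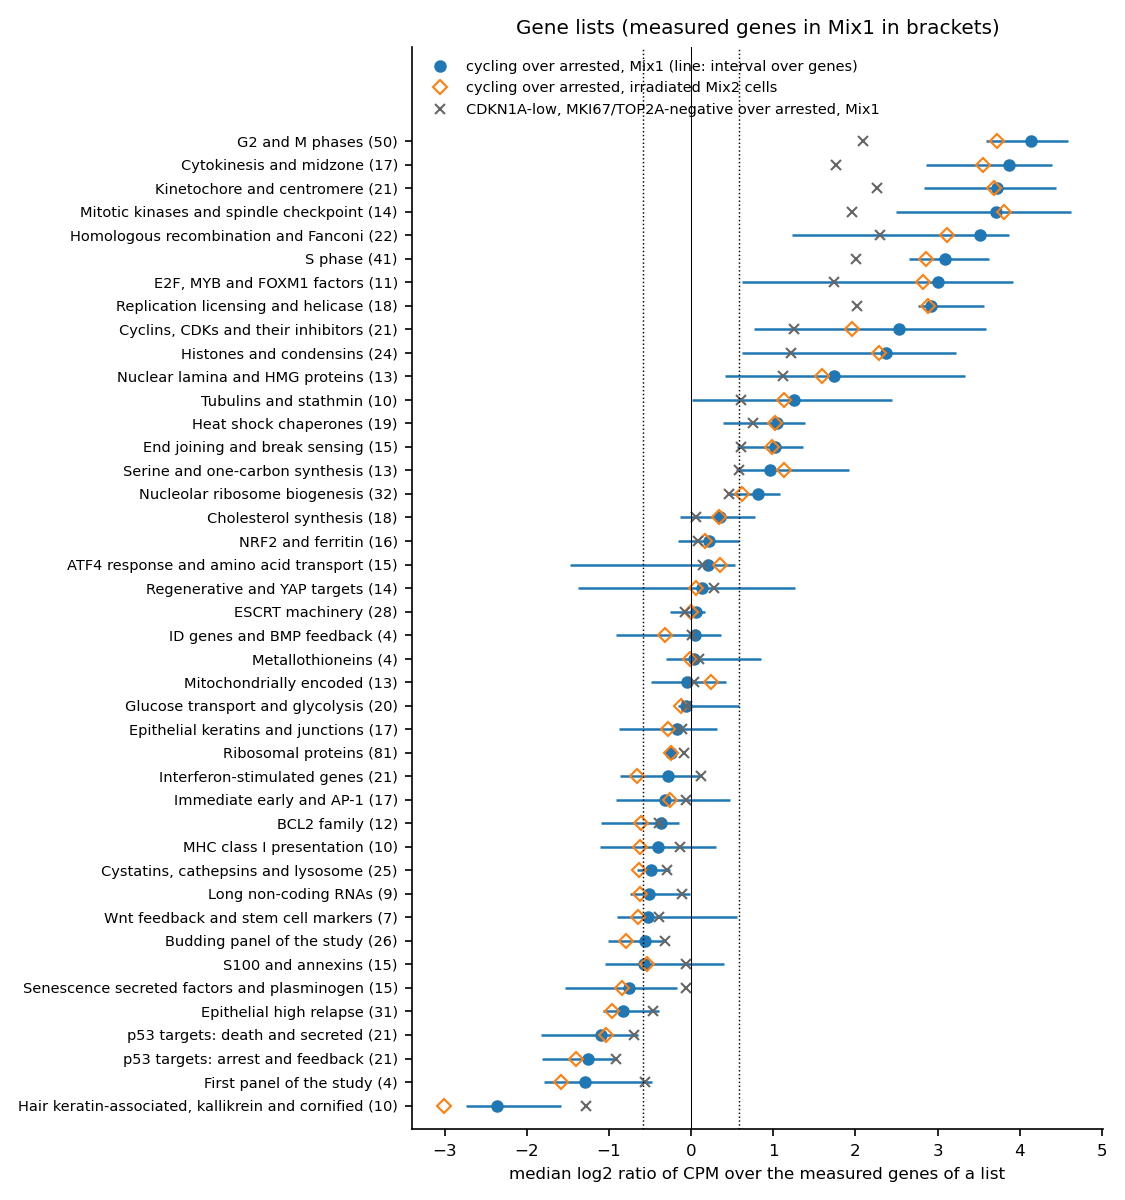
Median log2 ratio of each gene list, with the number of measured genes in brackets. Dots are cycling over arrested Mix1 cells with the interval over genes, open diamonds the same contrast among irradiated Mix2 cells, and crosses the MKI67/TOP2A-negative over arrested Mix1 cells; cell cycle lists lie between 1.74 and 4.13 and the p53 lists below -1.

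Outside the cycle, growth and protein folding genes were higher in the cycling cells. Of 19 measured heat shock chaperones 14 were higher, with a median log2 ratio of 1.05, where the background share of higher genes was 27.0%. HSP90AB1, the constitutive cytosolic HSP90, stood at 4410 against 1680 CPM (2.62 times, 2.59 to 2.66) and HSPD1, the mitochondrial chaperonin, at 2194 against 831 CPM. Of 32 genes of nucleolar ribosome biogenesis 20 were higher (median 0.82). Nucleolin (NCL) stood at 2545 against 764 CPM (3.33 times, 3.27 to 3.40) and NPM1 at 2268 against 978 CPM. The ribosomal proteins themselves did not follow, with 0 of 81 higher, 8 lower and a median of -0.24. Over all measured genes 13.1% were lower. FTH1 and HSP90AB1 have processed pseudogenes, and tubulins and metallothioneins have close paralogs, so reads may be split between copies.

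Of 13 enzymes of serine and one-carbon synthesis 10 were higher, with a median of 0.96, where 27.0% of all measured genes were higher. PHGDH, the first enzyme of serine synthesis, was 6.14 times higher (5.10 to 7.45), at 47.2 against 7.68 CPM. TYMS, which makes thymidylate, stood at 243 against 63.9 CPM. Of 10 tubulin and stathmin genes 7 were higher (median 1.26), with TUBA1B at 1112 against 205 CPM and stathmin (STMN1) at 534 against 77.8 CPM. EREG, an EGFR ligand, stood at 261 against 73.5 CPM (3.55 times, 3.34 to 3.78), and EPCAM, the epithelial adhesion molecule, at 343 against 192 CPM. EPCAM was higher while the keratins KRT19 (915 against 1922 CPM) and KRT18 (1312 against 2353 CPM) were lower, so the epithelial markers did not lie on 1 side.

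Most measured targets of p53 were lower in the cycling cells. Leaving out CDKN1A, 18 of 21 measured p53 targets of arrest and feedback were lower, with a median log2 ratio of -1.26, against a background share of lower genes of 13.1%. SFN, the 14-3-3 protein that holds cells in G2, stood at 328 CPM in cycling and 1665 CPM in arrested cells, 5.07 times lower (4.95 to 5.20). GADD45A, a damage-induced regulator, stood at 44.3 against 174 CPM. TP53INP1, a p53 cofactor, was 8.48 times lower (7.14 to 10.1), at 5.80 against 49.3 CPM. MDM2, the ligase that degrades p53, differed by less, at 42.8 against 79.8 CPM (1.86 times lower, 1.72 to 2.02).

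Of 21 p53 targets of death and secretion 16 were lower, with a median of -1.09. TP53I3, an oxidoreductase, stood at 33.4 against 274 CPM (8.19 times lower, 7.63 to 8.81), and BBC3, the BH3-only protein PUMA, at 11.4 against 85.6 CPM (7.5 times lower, 6.62 to 8.50). GDF15, a stress cytokine, stood at 316 against 1532 CPM (4.85 times lower, 4.73 to 4.97). BAX, the pore-forming BCL2 family member, differed least of these, at 101 against 158 CPM. Because the rule splits cells by CDKN1A, another p53 target, the direction of these lists goes with the choice of cells and is no separate support for it.

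Epidermal and hair-type genes showed the largest lower median, -2.36, with 10 of 10 measured genes lower. Their list held 26 genes and was written with earlier results of these data known. A member could count as measured through the arrested cells alone, so this count is no separate support for a direction. KRTAP3-1, a hair keratin-associated protein, stood at 12.7 against 141 CPM (11.1 times lower, 9.91 to 12.5) and KRTAP2-3 at 32.4 against 216 CPM (6.65 times lower, 6.18 to 7.17). CPA4, a carboxypeptidase, stood at 39.6 against 222 CPM, and the kallikrein protease KLK10 at 25.7 against 105.7 CPM. SUGCT, a mitochondrial CoA-transferase, had the lowest ratio among genes outside the cell cycle lists that reached 50 CPM in either group, at 6.91 against 78.2 CPM (11.3 times lower, 9.71 to 13.3).

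Several secreted, lysosomal and calcium-binding genes were lower. Of 15 senescence-associated secreted factors and plasminogen genes 10 were lower (median -0.76). Of 25 cystatin, cathepsin and lysosomal genes 9 were lower and 3 higher (median -0.49). The shares over all measured genes were 13.1% lower and 27.0% higher. CST3, the secreted protease inhibitor cystatin C, stood at 267 against 922 CPM (3.46 times lower, 3.36 to 3.56), PSAP, the precursor of the saposins, at 107 against 309 CPM and GRN at 45.5 against 130 CPM. S100A6, a calcium-binding protein, stood at 4741 against 13267 CPM (2.80 times lower, 2.78 to 2.82). FTH1, the heavy chain of ferritin, stood at 9914 against 26542 CPM (2.68 times lower, 2.66 to 2.69), while the light chain FTL was close, at 6208 against 6533 CPM. When mitochondrial and ribosomal genes were left out of the scaling, the share of higher genes among those past 1.5-fold went from 67.2% to 51.2%, with 1816 higher and 1733 lower.

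Surface and signalling genes divided by member. Over all measured genes 13.1% were lower and 27.0% higher. Of 31 measured genes of an epithelial signature of relapse 18 were lower and 3 higher (median -0.82). TSPAN1, a tetraspanin, stood at 7.13 CPM in cycling and 43.9 CPM in arrested cells, and the laminin receptor subunit ITGB4 at 64.4 against 156 CPM. EMP1 was on the other side, at 21.5 against 8.99 CPM, as was ezrin (EZR) at 849 against 558 CPM. Of 14 regenerative and YAP-linked genes 5 were higher and 4 lower (median 0.14). Amphiregulin (AREG) stood at 453 against 820 CPM, opposite to EREG, which is also an EGFR ligand, and the annexin ANXA1 at 458 against 179 CPM. Among 17 immediate early and AP-1 genes, ATF3, a stress-induced factor, stood at 17.7 against 112 CPM and JUND at 203 against 561 CPM, while FOSL1 stood at 115 against 54.1 CPM.

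Metabolic genes other than serine and one-carbon synthesis were mixed, and the shares of higher genes among glycolysis and cholesterol genes lay near the 27.0% of all measured genes. Of 20 genes of glucose transport and glycolysis 5 were higher and 4 lower (median -0.06). The glucose transporter SLC2A1 stood at 37.1 against 132 CPM and adrenomedullin (ADM), a hypoxia-induced peptide, at 17.9 against 50.1 CPM. Enolase ENO1 was on the other side at 1087 against 592 CPM, as was LDHB at 826 against 455 CPM. Of 18 genes of cholesterol synthesis 5 were higher and 1 lower (median 0.35), with EBP, a sterol isomerase, at 80.8 against 20.6 CPM and SQLE, squalene epoxidase, at 78.8 against 32.3 CPM. TM7SF2, a sterol reductase, was the lower one, at 13.9 against 56.7 CPM. SLC7A11, the cystine transporter shared by the ATF4 and NRF2 lists, stood at 21.5 against 6.37 CPM. Of 9 long non-coding RNAs 0 were higher and 4 lower, where 13.1% of all measured genes were lower. PINCR, which p53 induces, stood at 1.51 against 19 CPM.

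The gene panels that the study itself had picked from budding RTP cells were lower or near equal in the cycling cells. They were picked on irradiated cells of the same line, so they are no independent evidence of direction. Shortened copies of both panels were used here, with 5 genes of the first and 27 of the second, and the counts do not describe the whole panels. Of 4 measured genes of the first panel, led by CST3, 3 were lower (median -1.29). Of 26 genes of the second panel 12 were lower and 0 higher (median -0.56). Among all measured genes 13.1% were lower and 27.0% higher. SNCG, gamma-synuclein, stood at 94.3 against 239 CPM (2.53 times lower, 2.41 to 2.66), ISYNA1, which makes inositol phosphate, at 115 against 299 CPM and ASS1 at 29.4 against 122 CPM. The ESCRT machinery, which cuts membranes in cytokinesis and budding, hardly differed, with 1 of 28 higher, 3 lower and a median of 0.06.

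Some interferon-stimulated and antigen presentation genes were lower in the cycling cells. Of 21 interferon-stimulated genes 7 were lower and 1 higher, with a median of -0.28, where 13.1% of all measured genes were lower. Their summed level was 1948 CPM in cycling and 2786 CPM in arrested cells. ISG15, a ubiquitin-like protein, stood at 473 against 1001 CPM (2.12 times lower, 2.07 to 2.17) while OAS3, a sensor of double-stranded RNA, was the higher one at 18.4 against 4.68 CPM. IFI6 was close, at 83.7 against 101 CPM. Of 10 genes of MHC class I presentation 3 were lower and 1 higher (median -0.40), with a summed level of 1279 against 2074 CPM. Several genes often read as markers of a stem-like or stressed state were within 1.5-fold, among them MYC at 156 against 184 CPM, CD44 at 141 against 206 CPM, ID1 at 417 against 388 CPM and the metallothionein MT2A at 5415 against 6713 CPM.

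Among the 13 mitochondrially encoded genes 2 were higher and 1 lower (median -0.05), where 27.0% and 13.1% of all measured genes were. MT-ND6, the complex I gene on the light strand of the mitochondrial genome, stood out at 466 against 95.2 CPM, a ratio of 4.90. The cell filter itself acts on the summed level of these genes.

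The 737 cells with at most 3 CDKN1A UMIs but no MKI67 or TOP2A UMI lay between both groups for most lists. These cells were shallower, with a median of 7912 UMIs, so that a count of 0 for both genes is less certain there. Against arrested cells 926 of 7623 measured genes (12.1%) were higher and 771 (10.1%) lower in them. Genes of the S phase list were higher in 37 of 38 (median log2 ratio 2.01) and those of G2 and M phases in 37 of 41 (median 2.09). The p53 targets of arrest were lower in 18 of 21 (median -0.91). HMGB1 stood at 414 CPM in arrested cells, 1506 CPM in these cells and 2514 CPM in cycling cells. GDF15 went from 1532 to 718 to 316 CPM in the same order, and NCL from 764 to 1777 to 2545 CPM.

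When the cycling cells were set against these MKI67/TOP2A-negative cells, 767 of 7604 genes (10.1%) were higher and 212 (2.79%) lower. All 50 genes of the G2 and M phase list were higher (median 1.79), as were 33 of 41 S phase genes (median 0.85). The groups were split by MKI67 and TOP2A, themselves genes of G2 and mitosis, so the larger median of that list goes with the choice of cells. Of 19 p53 targets of arrest 7 were lower (median -0.56), and 9 of 10 hair-type and kallikrein genes were lower (median -1.11). KRTAP2-3 stood at 84.0 CPM in the negative and 32.4 CPM in the cycling cells, and TP53I3 at 77.0 against 33.4 CPM.

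The same rule applied to the irradiated cells of Mix2, a library that it was not written for, gave 2390 cycling and 504 arrested cells. Of 7984 measured genes 1877 (23.5%) were higher and 1397 (17.5%) lower in the cycling cells. Of 2065 genes higher in Mix1 that were measured in both libraries, 1622 (78.5%) were higher in Mix2 and 0 were lower past 1.5-fold. Of 979 lower in Mix1, 903 (92.2%) were lower in Mix2 and 0 were higher. Across 7687 genes the log2 ratios of both libraries had a correlation of 0.967, which is a description over genes that are not independent. MKI67, TOP2A and CDKN1A chose the cells in both libraries. Genes that go with these share a direction by that choice, so the overlap is no independent support.

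The genes named here lay on the same side as in Mix1, with ratios of other sizes. CDK1 stood at 345 CPM in cycling and 17.3 CPM in arrested IR cells, NDC80 at 61.5 and 1.90 CPM, and LMNB1 at 51.3 and 4.5 CPM. TP53I3 stood at 25 against 259 CPM (10.4 times lower, 9.42 to 11.4) and KRTAP2-3 at 15 against 185 CPM. CCND1 was again on the other side from most genes of the cycle, at 431 against 980 CPM. Medians were 2.86 for S phase (40 of 40 higher), 3.72 for G2 and M phases (49 of 50) and -1.39 for p53 targets of arrest (18 of 21 lower). The interferon-stimulated genes had more lower members than in Mix1, 13 of 24 with a median of -0.66. Over all genes measured in Mix2 17.5% were lower. ISG15 was 2.78 times lower (2.70 to 2.86). The difference between the libraries itself was not tested.

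Fewer genes set the cycling cells of Mix1 apart from cycling cells that had never been irradiated than from the arrested cells. Against the 324 cycling NC cells of Mix2, 365 of 7720 measured genes (4.73%) were higher and 376 (4.87%) lower. Of the cell cycle lists 8 genes were higher and 9 lower of 212. The median log2 ratio was 0.13 for S phase genes and -0.21 for genes of G2 and M phases. Within Mix2, where both groups share a library, the 2390 cycling IR cells differed from the same NC cells by 74 of 7619 genes higher (0.971%) and 98 lower (1.29%), with 0 of 211 cell cycle genes on either side. Both comparisons use the same 324 NC cells, so they are not independent, and library and preparation cannot be told apart in the first.

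The p53 targets, which set cycling and arrested cells apart, were near the NC level. Of 18 measured targets of arrest 2 were higher in the cycling Mix1 cells (median 0.12) and 0 of 17 in the cycling IR cells (median 0.04). The 2 were BTG2, an antiproliferative factor, at 13.3 against 6.63 CPM, and PLK2, at 20.7 against 10.5 CPM. Over all measured genes 4.73% were higher in Mix1 and 0.971% in IR. MDM2 stood at 42.8 CPM in Mix1, 35.7 in IR and 32.4 in NC cycling cells. GDF15 stood at 316, 252 and 250 CPM, TP53I3 at 33.4, 25 and 23.7 CPM, and SFN at 328, 364 and 346 CPM in the same order. For each of these the arrested cells of Mix1 stood higher than every cycling group. Every cycling group was chosen for at most 3 UMIs of CDKN1A, itself a p53 target. The nearness of these genes to NC thus goes with the choice of cells and does not show p53 activity back at the NC level. CD82, a tetraspanin, stood apart at 4.23 CPM in Mix1 against 34.1 CPM in IR and 41.5 CPM in NC, a difference between the libraries.

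**Figure D3:**
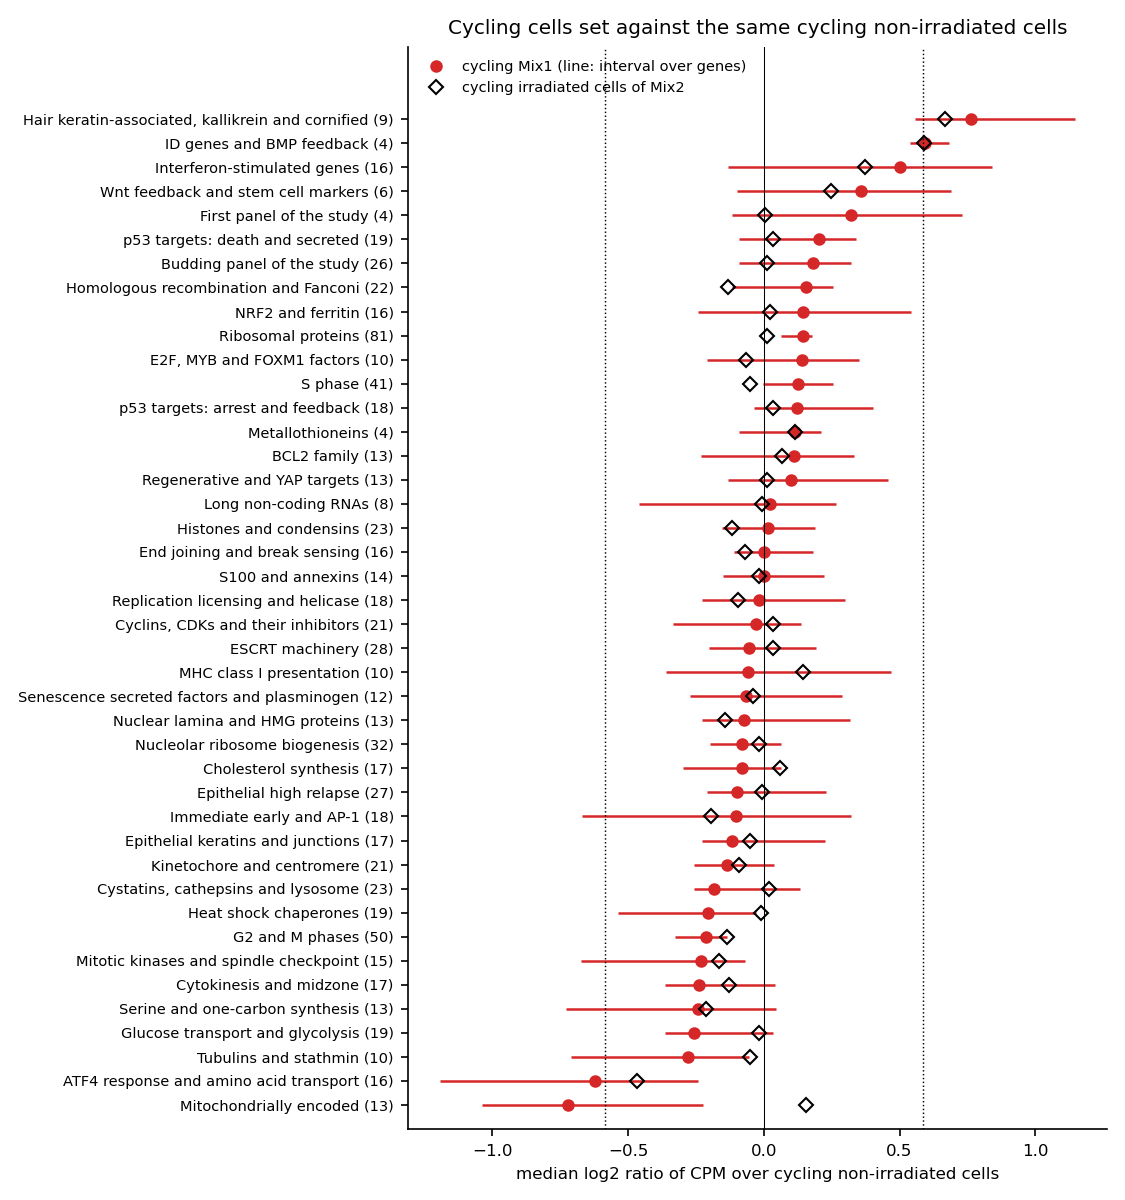
Median log2 ratio of each list over the cycling non-irradiated cells of Mix2. Red dots are cycling Mix1 cells with the interval over genes and open diamonds cycling irradiated cells of Mix2; the cell cycle lists sit near 0, interferon-stimulated genes at 0.50 and 0.37, and ATF4 response genes at -0.62 and -0.47.

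Some interferon-stimulated genes were above NC in cycling irradiated cells of both libraries. Of 16 measured genes 8 were higher in the cycling Mix1 cells (median 0.50, -0.13 to 0.84 over genes) and 5 in the cycling IR cells (median 0.37), where 4.73% and 0.971% of all measured genes were higher. The cycling R cells had a median of -0.07. IFI6, an interferon-induced mitochondrial protein, stood at 83.7 CPM in Mix1, 88.7 in IR, 19.9 in NC and 21.3 in R cycling cells. Its ratio over NC was 4.21 (3.24 to 5.57) in Mix1 and 4.46 (3.43 to 5.91) in IR. ISG15 stood at 473, 516, 285 and 352 CPM in the same order, and IFI27 at 17.4, 12.1, 4.19 and 3.83 CPM. IFITM3 (465, 691, 589 and 637 CPM) and LY6E (354, 366, 388 and 370 CPM) did not share the pattern, so the group did not move as 1 block. IFI27 was under 10 CPM in NC and so counted as measured only through the irradiated cells. Low genes of the list can add higher members by that limit, so the counts of this list are no separate support for a direction.

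Genes of the ATF4 response and amino acid transport were below NC. Of 16 measured genes 11 were lower in the cycling Mix1 cells (median -0.62) and 6 in the cycling IR cells (median -0.47), where 4.87% and 1.29% of all measured genes were lower. The cycling R cells had a median of -0.71. ASNS, asparagine synthetase, stood at 56.2 CPM in Mix1, at 80.3 CPM in IR, at 128 CPM in NC and at 69.5 CPM in R. TRIB3, a pseudokinase induced by ATF4, stood at 15.1, 18.8, 38.4 and 18.0 CPM. SLC1A5, a glutamine transporter, was low in Mix1 alone, at 73.4 CPM against 174, 228 and 194 CPM. PHGDH, of serine synthesis, stood at 47.2, 48.2, 78.8 and 55.2 CPM, so that NC was the highest of the cycling groups for ASNS, TRIB3, SLC1A5 and PHGDH alike.

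Some hair-type and BMP-responsive genes stood above NC. Of 9 hair-type and kallikrein genes 7 were higher and 1 lower in the cycling Mix1 cells (median 0.76), and 5 were higher in the cycling IR cells (median 0.67), where 4.73% and 0.971% of all measured genes were higher. KRTAP3-1 stood at 12.7 CPM in Mix1, 10.2 in IR, 4.88 in NC and 6.02 in R. It was under 10 CPM in NC and so counted as measured only through the irradiated cells. A list of genes this low can gain higher members by that limit, so the counts are no separate support for a direction. KRTAP2-3 was higher in Mix1 alone, at 32.4 CPM against 15, 14.6 and 15.3 CPM. ID1 and ID3, inhibitors of differentiation that BMP signals switch on, stood at 417 and 122 CPM in Mix1, at 512 and 146 CPM in IR, at 287 and 76.0 CPM in NC and at 500 and 156 CPM in R. For both ID genes NC was the lowest of the 4 cycling groups, and R, whose cells also come from an 8 Gy culture, was not. With each cell thinned to 5000 UMIs the list of ID genes and BMP feedback went from a median of 0.59 to 0.54 over NC, within 1.5-fold.

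Mitochondrial and chaperone genes differed between the libraries. Of 13 mitochondrially encoded genes 9 were lower in Mix1 cycling than in NC cycling cells (median -0.72) and 0 were higher or lower in the cycling IR cells (median 0.16). Over all measured genes 4.87% were lower in the Mix1 cells. MT-ND6 stood at 466 CPM in Mix1, 1053 in IR and 1372 in NC. The inducible chaperone HSPA1B stood at 67.2, 123 and 142 CPM in the same order and HSP90AA1 at 4193, 6562 and 6557 CPM. In these genes IR and NC, which share a library, were close and Mix1 stood apart.

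Within the cell cycle lists some genes fell outside 1.5-fold of NC in Mix1. PLK1 stood at 68.8 CPM in Mix1, 91.8 in IR and 111 in NC cycling cells. CDC20, which activates the anaphase-promoting complex, stood at 191 against 310 CPM and KIF20A, a motor of cytokinesis, at 21.3 against 42.5 CPM. CDKN2A (98.4 against 44.3 CPM) and the linker histone gene HIST1H1C (166 against 81.6 CPM) were on the other side. In the cycling IR cells, which share the library of NC, 0 of 211 measured genes of these lists were past 1.5-fold of NC. Library and preparation cannot be told apart in the values of Mix1.

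Cells inside the group were then split by how many CDKN1A UMIs they held. There were 555 cells with 0, 738 with 1, 584 with 2 and 394 with 3 CDKN1A UMIs, and their median depth went from 10713 to 12531 UMIs. Between 3 and 0 UMIs, 37 of 7620 genes (0.486%) were higher and 46 (0.604%) lower. Of 18 p53 targets of arrest 5 were higher (median log2 ratio 0.35), and those of death and secretion had 0 of 18 past 1.5-fold with a median of 0.23. The 5 were BTG2 (10.5 CPM at 0 and 16 CPM at 3 UMIs), PLK2 (15.8 and 25.6 CPM), PPM1D (12.7 and 19.4 CPM), PHLDA3 (18.9 and 33.7 CPM) and TIGAR (17.1 and 26.7 CPM). All 5 are targets of p53, as CDKN1A is, so their direction goes with the split and is no separate support for it.

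Over the 4 bins GDF15 stood at 282, 285, 321 and 404 CPM, and MDM2 at 39.3, 39.5, 44.6 and 50.3 CPM. CCNB1 went the other way, from 296 through 277 and 272 to 251 CPM, and LMNB1 from 72.0 through 71.1 and 66.9 to 60.4 CPM. The highest GDF15 level, in the cells with 3 CDKN1A UMIs, was still far under the 1532 CPM of the arrested cells. Between 3 and 0 UMIs the S phase list had a median log2 ratio of 0.01 and the G2 and M phase list of -0.10. HIST1H4C stood at 1950, 2079, 2132 and 2271 CPM over the 4 bins, so not every gene of the cycle went down with more CDKN1A.

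**Figure D4:**
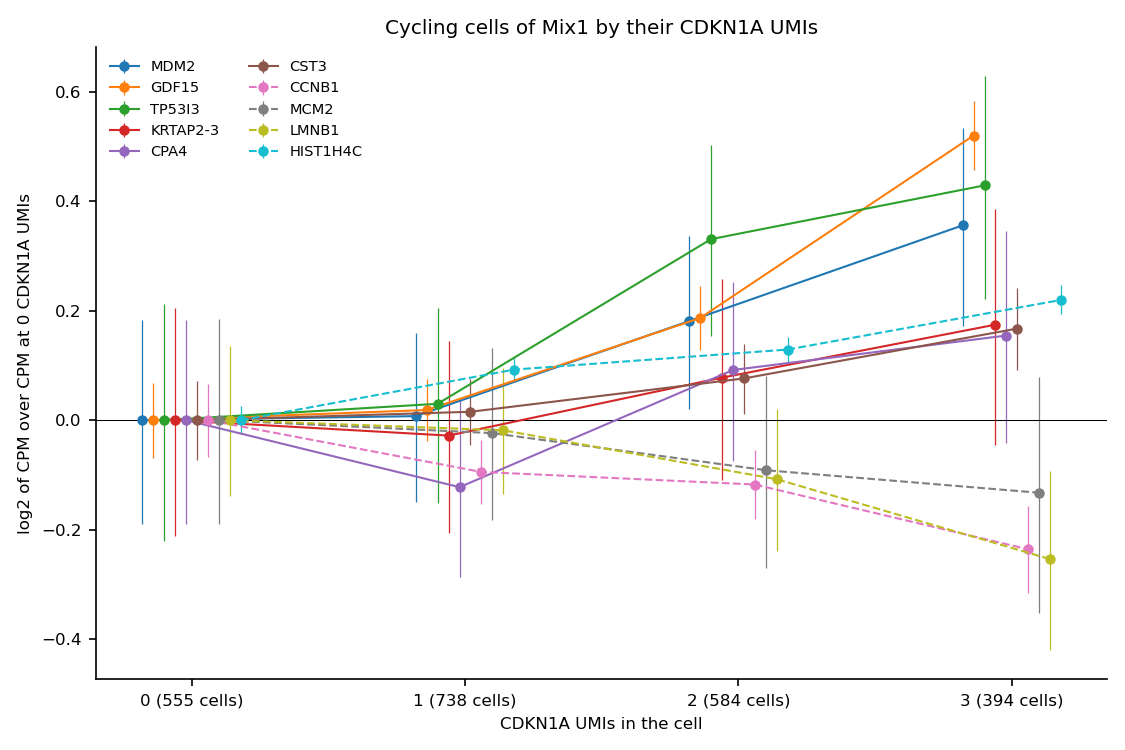
Log2 ratio of CPM to the CPM at 0 CDKN1A UMIs, for cycling Mix1 cells with 0, 1, 2 or 3 CDKN1A UMIs on the x axis; bars are exact Poisson 95% intervals of the count in each bin (counting error only). GDF15, TP53I3 and MDM2 lie above 0 at 3 UMIs, CCNB1 and LMNB1 below.

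A split by MKI67 plus TOP2A compared 1400 cells with 5 to 9 UMIs of the pair, 754 with 10 to 19 and 115 with 20 to 39, and their median depth went from 10847.5 through 13134.5 to 14752 UMIs. A further 2 cells with 40 or more, with CCNB1 at 317 CPM, are too few to read. CCNB1 stood at 229, 319 and 436 CPM and LMNB1 at 62.0, 71.3 and 105 CPM. CCNE2, the cyclin of the entry into S phase, went from 39 through 17.8 to 9.41 CPM, and HIST1H4C from 2274 through 2011 to 1068 CPM. More of the rule genes thus went with more mitotic and fewer S phase transcripts. GDF15 stood at 340, 290 and 249 CPM while MDM2 stood at 39.5, 45.2 and 58.8 CPM, so these p53 targets took opposite directions.

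Cells just inside and just outside the limits differed little. The 437 cells with exactly 5 MKI67 plus TOP2A UMIs had CCNB1 at 242 CPM and TP53I3 at 35.0 CPM, and the 495 cells with 4 had them at 219 and 39.2 CPM. The 394 cells with 3 CDKN1A UMIs had GDF15 at 404 CPM and CCNB1 at 251 CPM, and the 182 cells with 4 had them at 442 and 207 CPM. The limits cut a range and do not mark a gap between kinds of cells.

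To compare single cells at 1 depth, each was thinned to 5000 UMIs. Cycling cells of Mix1 held a median of 18 UMIs (5th to 95th percentile 9 to 30) of the S phase list and arrested cells 3 (0 to 7), with 8 (1 to 24) in the MKI67/TOP2A-negative cells. For G2 and M phases the medians were 34 (17 to 60), 5 (1 to 11) and 11 (2 to 34). The 5th percentile of cycling cells thus lay above the 95th percentile of arrested cells in both lists. Cells with 1 to 4 UMIs of MKI67 plus TOP2A were left out of both groups, so this gap goes with the choice of cells. The negative cells spanned both ranges.

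For p53 targets the ranges overlapped. The list of arrest genes had a median of 4 UMIs (1 to 8) in cycling and 13 (4 to 31) in arrested cells, and 0.572% of cycling cells exceeded the median of the arrested cells. The list of death and secreted genes had a median of 7 UMIs (3 to 14) in cycling and 20 (10 to 40) in arrested cells, and 0.440% of cycling cells exceeded the median of the arrested cells. Cycling cells of IR, NC and R, chosen by the same CDKN1A limit, had medians of 7 as well. The 95th percentile of NC cycling cells was exceeded by 10.6% of cycling Mix1 cells, by 88.2% of arrested Mix1 cells and by 4.94% of the NC cells themselves. In some other lists a larger share of cycling Mix1 cells exceeded the 95th percentile of NC. Shares were 40.4% for ribosomal proteins, 39.2% for NRF2 and ferritin genes, 27.7% for the first panel of the study and 14.05% for its second. Cycling IR cells, which share the library of NC, lay closer to NC in these lists. Mean UMIs in Mix1, IR and NC were 1268.65, 1155.2 and 1149.0 for ribosomal proteins and 111.7, 85.2 and 79.0 for NRF2 and ferritin genes. They were 36.2, 28.1 and 29.3 for the first panel and 109.34, 104.98 and 103.7 for the second. The first panel's sum is mostly RPS12, a gene of the ribosomal proteins. Among cycling Mix1 cells with at least 2 times as many G2 and M as S phase UMIs, RPS12 held 5942 of its 7291 CPM and CST3 268 CPM. The share of 27.7% is thus not separate from that of the ribosomal proteins. Library and preparation cannot be told apart in the values of Mix1. Chaperones had medians of 87 UMIs (61 to 116) in cycling and 36 in arrested cells. Interferon-stimulated genes overlapped broadly, with medians of 9 and 12 UMIs, and 19.8% of cycling cells were above the arrested median.

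**Figure D5:**
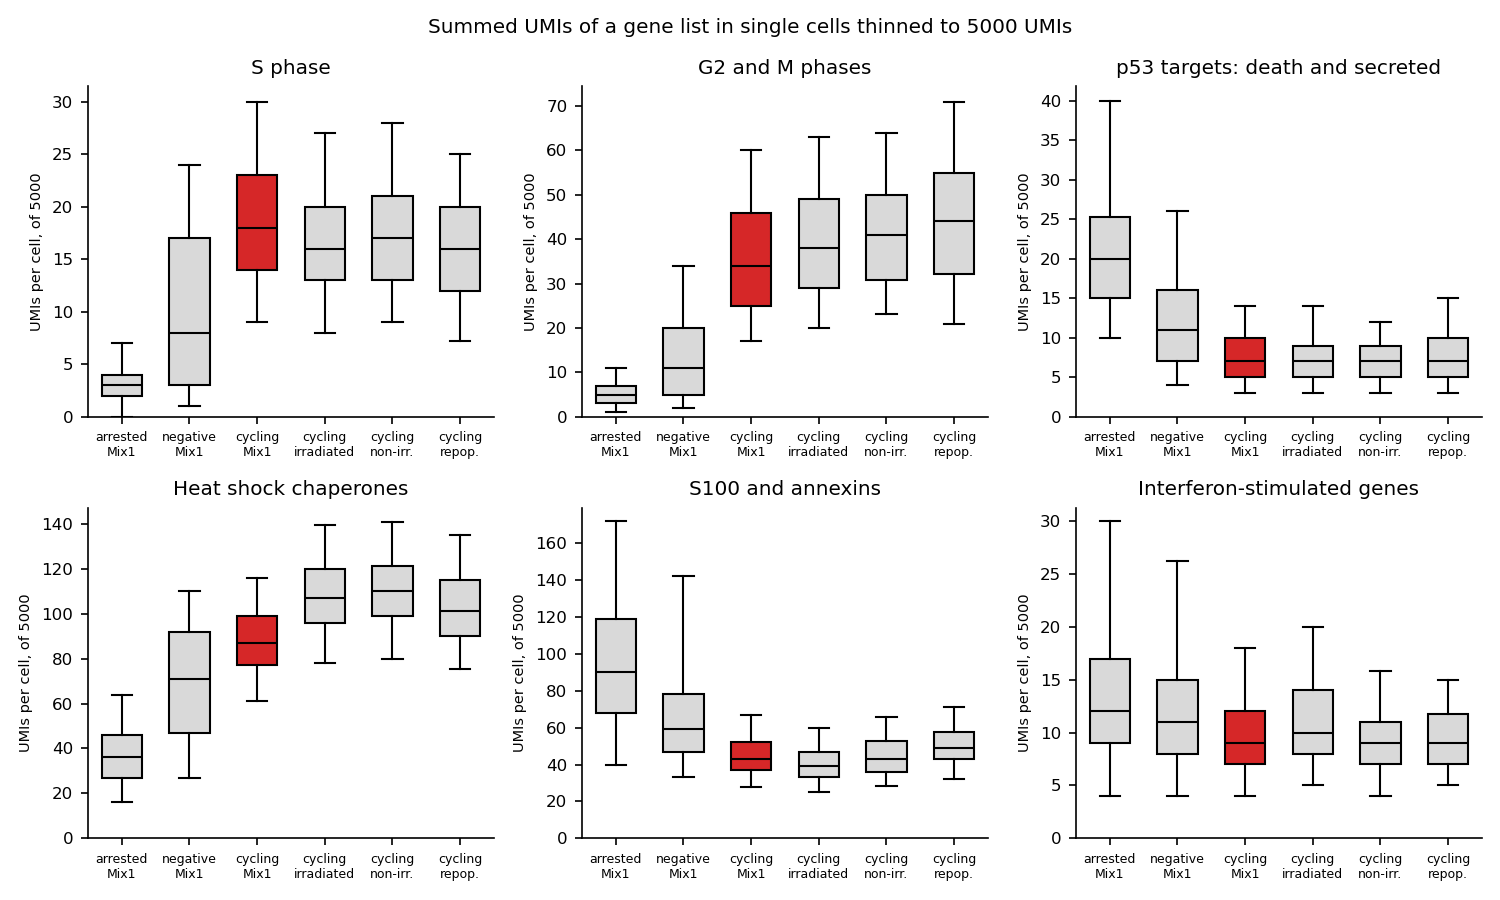
UMIs of gene lists per cell after thinning each cell to 5000 UMIs, in arrested, MKI67/TOP2A-negative and cycling (red) Mix1 cells and in cycling irradiated, non-irradiated and repopulated Mix2 cells; boxes are quartiles with the median, whiskers the 5th and 95th percentiles. The p53 death and secreted genes have a median of 7 UMIs in all 4 cycling groups, which were chosen by the same CDKN1A limit. Chaperones have 87 in cycling Mix1 cells against 107, 110 and 101 in the irradiated, non-irradiated and repopulated ones.

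At this depth 83.6% of the cycling Mix1 cells held more G2 and M than S phase UMIs and 14.8% held more S phase UMIs. The same shares were 69.2% and 18.6% among arrested Mix1 cells, which held medians of 3 S phase and 5 G2 and M phase UMIs. In Mix2 the share with more G2 and M phase UMIs was 91.1% in IR, 93.8% in NC and 93.2% in R cycling cells.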

How the data were processed

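Single-cell 3′ RNA libraries of HCT116 cells were measured. The deposited values are raw UMI counts, not normalized, which the authors made with Cell Ranger on GRCh38 (3.1.0 for Mix1 and 3.0.1 for Mix2 in the file headers). Of the columns of per-sample values, 0 were left unmapped. Counts of 33538 genes were used, with 159242469 gene UMIs over 17019 barcodes in Mix1 and 107393576 over 13888 in Mix2. Both libraries held more barcodes than the cells loaded, about 10000 for Mix1 and 12000 for Mix2. The cause was not tested, nor whether each barcode is 1 cell. The unfiltered matrix of Mix2 was not used. Both libraries share 59 barcode sequences.

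The members, the limits and the gene lists were chosen with earlier results of these data known. Cells with at least 200 genes and under 10% mitochondrial UMIs were kept. A Mix2 cell was IR, NC or R where tag8, tag6 or tag7 made up at least 80% of its hashtag counts. Background tag counts alone can reach that for tag8 in weakly tagged droplets. UMIs were summed per group and scaled to CPM. Ratios have exact conditional binomial 95% intervals, shares exact binomial (Clopper-Pearson) ones, list medians order-statistic intervals over genes, and bins of CDKN1A exact Poisson ones. With 1 library a group no test was made. The scripts were tested on simulated data. Free RNA in Mix1 droplets could not be measured, since no droplets without cells were used for it. Scrublet (scanpy 1.11.5) called 0 of 15630 cells doublets and so gave no usable calls. Instead, the 10% of cells with the highest scores were left out in an alternative, and 7.31% of the cycling and 4.33% of the arrested cells lay above that limit.

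Named genes were the 3 genes of the rule, the 10 highest ratios inside and the 10 highest and 15 lowest outside the cell cycle lists at 50 CPM or more, up to 4 members per list with the largest log2 ratio, and a set of 25 fixed genes. Other list members were named after their values were seen. The values of some genes that the rule names are left out here. Alternatives changed the depth, thinning, scaling (CPM without mitochondrial and ribosomal genes, TMM of edgeR 4.0.16), cell weights, limits of the rule, mitochondrial filter, doublet scores, gene filter and hashtag share. Gene models are from GENCODE 44, where MKI67 spans chromosome 10 from 128096659 to 128126423, TOP2A chromosome 17 from 40388525 to 40417896 and CDKN1A chromosome 6 from 36676460 to 36687337. Promoters are from RefSeq (GRCh38.p14).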

Additional observations from a re-analysis of the deposited data

How the results depend on the processing

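The number of genes higher in cycling than in arrested Mix1 cells lay between 990 and 3170 across the alternatives, against 2139 as reported, and the number lower between 355 and 2386, against 1042. A minimum of 50 CPM, which tests 3051 genes, gave 990 higher and 355 lower. A minimum of 1 CPM, which tests 12792 genes, gave 2386 lower. Scaling without mitochondrial and ribosomal genes gave 1733 lower. All 22 lists past a median of 1.5-fold remained past it in each of the 14 alternatives. Of 172 named genes past 1.5-fold, 166 to 172 remained past it in the alternatives that tested all of them, and 164 of 165 without mitochondrial and ribosomal genes. MT-CYB turned, from a log2 ratio of -0.62 to 0.16, with cells under 5% mitochondrial UMIs; the cause was not tested. A rule set on cells thinned to 5000 UMIs took 1917 cycling cells, 1491 of them shared with the group described. Against cycling NC cells, thinning gave 547 genes higher and 486 lower (365 and 376 as reported), and 3 of the 4 lists past 1.5-fold remained, ID genes and BMP feedback going from 0.59 to 0.54. Of 37 named genes past 1.5-fold 29 remained past it, and CXCL1 turned from a log2 ratio of 0.66 to -0.81; the cause was not tested. No paired analysis was possible because each population came from 1 library and no test was made. Depth limits genes under 10 CPM, the shares of cells that meet a UMI limit and the 324 NC and 206 R cells.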

Other observations

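The cycling cells were also compared among themselves by the part of the cycle they leaned to. Of cells thinned to 5000 UMIs, 1110 held at least 2 times as many G2 and M as S phase UMIs and 337 held more S phase UMIs. The S and G2 and M phase lists differ between them by construction. PLK1 stood at 102 CPM in the G2 and M leaning and 25.6 CPM in the S leaning cells, and CENPE at 65.9 and 10.9 CPM. HIST1H1E, a linker histone gene of S phase, stood at 54.7 and 176 CPM. Genes outside the cycle hardly followed the lean. The p53 targets of arrest had a median log2 ratio of 0.01, those of death and secretion of 0.03 and hair-type and kallikrein genes of -0.01. KRTAP2-3 stood at 32.0 CPM in the G2 and M leaning and 32.2 CPM in the S leaning cells, TP53I3 at 33 and 31.7 CPM and SFN at 326 CPM in both. GDF15 was lower in the G2 and M leaning cells, at 263 against 351 CPM, and the nuclear RNA NEAT1 likewise, at 260 against 424 CPM. SOX4, a transcription factor, was higher there, at 183 against 106.2 CPM.

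By chromosome, genes outside the cell cycle lists had median log2 ratios of cycling over arrested Mix1 cells from -0.03 (interval over genes -0.12 to 0.06) on chromosome 19, with 526 genes, to 0.35 (0.24 to 0.49) on chromosome 4, with 267 genes. Gene length and level differ between chromosomes, and their part in this range was not tested.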
